A study of Rattus norvegicus with 20 samples.

Results

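Gldn, the gene of gliomedin, was followed across all 20 arrays of a study of celecoxib in rat heart cell cultures. It was selected by name, as every probe other than a control whose gene name was Gldn or whose description contained gliomedin, and it found 1 probe in 1 spot, among 41012 probes in 43379 spots. The gene was picked because it read higher than untreated in every celecoxib group. Its differences from untreated are therefore given as a description, without a test. The comparisons between times and between concentrations were not used to pick it and are tested.

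Gliomedin is a single-pass membrane protein with a collagen-like stretch and an olfactomedin domain. In peripheral nerve it is made by myelinating Schwann cells and binds the adhesion molecules neurofascin and NrCAM on the axon, which gathers sodium channels at the nodes of Ranvier. The protein is released from the cell surface by furin-type convertases, and tolloid proteases such as Bmp1 cut it further. It is not a classical gene of heart muscle.

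The cultures were primary cells from hearts of neonatal rats, grown for a day in DMEM before treatment. Celecoxib, a selective inhibitor of the inducible cyclo-oxygenase, acted for 6 h or 24 h at a reference concentration called 1, or at 1/5 or 1/25 of it, with 3 arrays in each of these 6 groups. The absolute value of concentration 1 is not given in the labels. The untreated group had 2 arrays, for which the labels state neither a time nor a vehicle, so vehicle and time in culture cannot be told apart from the drug where untreated cells are the reference. The labels call the cells cardiomyocytes, and all 13 cardiomyocyte marker genes tested, among them Myh6, Tnnt2 and Actn2, were well above background on all 20 arrays. Whether the replicates came from different cultures is not stated, so the p-values rest on a spread between samples that may be technical. RNA came from whole cultures, where fewer cells of a type and less RNA per cell cannot be told apart. The number of arrays limits the precision.

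Between 63.6% and 83.2% of probes were well above background on an array. The arrays were scanned on 2 days and lay on 6 slides. Day 1 held both untreated arrays and the 9 arrays of 24 h. Of the 9 arrays of 6 h, 3 were scanned on day 1 (concentration 1 replicates 1 and 2, and concentration 1/25 replicate 1) and 6 on day 2. Because scan day coincides in part with time, the time comparisons are also given with a term for scan day and from day 1 alone.

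The probe is printed because every Gldn value rests on this single oligonucleotide. The array annotation places it at chr8:57857929-57857988 of build rn3, plus strand. Its sequence has 60 bases, 27 of them G or C (45%), and is read from 5′ to 3′.
Gldn probe: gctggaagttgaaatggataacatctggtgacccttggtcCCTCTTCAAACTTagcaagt
The capitals, bases 41 to 53 counted from the 5′ end, mark the longest run of letters that any of the 41011 other probes shares on the same strand. That run has 13 bases and occurs in 1 other probe. On the opposite strand the longest shared runs also have 13 bases, in 2 other probes. The exon of Gldn in which the probe lies was not analysed here.

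Gldn read low on the untreated arrays and high on every celecoxib array. The processed signal, a background-subtracted brightness in the scanner's linear units, was 820 and 878 on the untreated arrays. The spot was well above background on 20 of 20 arrays, including both untreated arrays, where its mean brightness was 21.5 and 21.6 times the local background. It was saturated on 0 arrays, and its highest mean brightness of 23533 lay well under the saturation value of 65256. The scanner software put the error of the signal at 14.0% and 19.4% on the untreated arrays and at no more than 10.2% on any celecoxib array.

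After 6 h, the processed signal was 13908, 10966 and 18702 at concentration 1. It was 9396, 15686 and 12883 at 1/5, and 11932, 22470 and 13308 at 1/25. Replicate 2 of 1/25 stood highest and replicate 1 of 1/5 lowest among these 9 arrays. After 24 h, the signal was 11836, 5902 and 5559 at concentration 1. It was 4640, 6814 and 6651 at 1/5, and 8846, 5429 and 7300 at 1/25. Of the 24 h arrays, replicate 1 of concentration 1 stood highest and was inside the range of the 6 h arrays. The lowest celecoxib signal, on replicate 1 of 1/5 for 24 h, was 5.29 times the highest untreated signal, so untreated and celecoxib arrays did not overlap.

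For comparisons between arrays, the level was taken as log2 of the processed signal minus log2 of the array's 75th percentile. On this scale the untreated arrays stood at -4.01 and -3.77. The levels at 6 h were 0.50, 0.13 and 0.41 for concentration 1, -0.59, 0.08 and -0.14 for 1/5, and 0.63, 0.36 and 0.05 for 1/25. Gldn was thus near the 75th percentile of all probes at 6 h, and far below it without the drug. The levels at 24 h were -0.21, -0.76 and -0.92 for concentration 1, -1.08, -0.60 and -0.55 for 1/5, and -0.44, -0.95 and -0.79 for 1/25. All 9 arrays of 24 h stood below the 75th percentile, and 7 of the 9 arrays of 6 h above it.

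**Figure D1:**
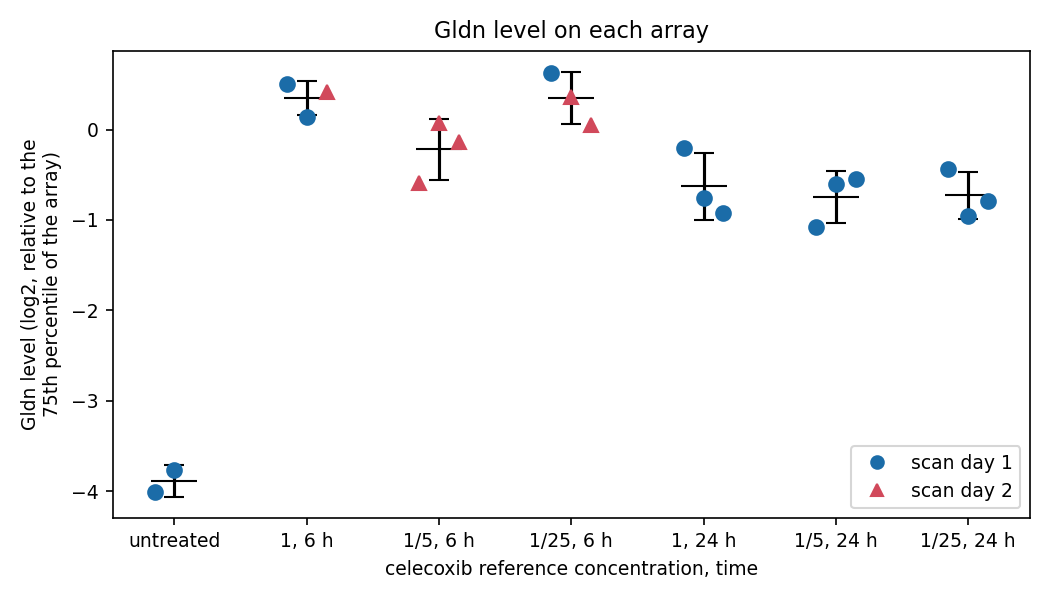
Gldn level on each of the 20 arrays (vertical axis, log2 minus that of the array's 75th percentile) by group (horizontal axis), with circles for scan day 1, triangles for scan day 2, and group mean and SD in black. The untreated arrays lie at -4.01 and -3.77, and the lowest celecoxib array at -1.08.

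In order of their mean level, the groups were concentration 1 for 6 h (0.35 ± 0.19, SD, n = 3), 1/25 for 6 h (0.35 ± 0.29, n = 3) and 1/5 for 6 h (-0.22 ± 0.34, n = 3). Next came 1 for 24 h (-0.63 ± 0.37, n = 3), 1/25 for 24 h (-0.73 ± 0.26, n = 3) and 1/5 for 24 h (-0.75 ± 0.29, n = 3), and untreated was last (-3.89 ± 0.17, n = 2). Neighbouring celecoxib groups in this order overlapped, and the pooled SD within groups was 0.29. Only at the step from 1/5 for 24 h down to untreated did the arrays of neighbouring groups not overlap. The ratio in the authors' deposited table, which sets each array against the mean of the untreated arrays, showed the same division. It was 0.794 and 1.21 for the untreated arrays, 10.6 to 32.8 for the arrays of 6 h and 8.90 to 14.6 for the arrays of 24 h.

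Against untreated, Gldn read higher by 4.24 ± 0.30 at concentration 1 (log2 difference ± SE from limma, 3 arrays against 2), by 3.67 ± 0.30 at 1/5 and by 4.24 ± 0.30 at 1/25 after 6 h. These are 18.9-fold, 12.7-fold and 18.8-fold. After 24 h it read higher by 3.26, 3.14 and 3.16 in the same order of concentrations, each with an SE of 0.30, which are 9.56-fold, 8.83-fold and 8.93-fold. Among all genes with a value, Gldn ranked 1, 46 and 4 from the highest difference at 6 h, and 1, 3 and 3 at 24 h, for concentrations 1, 1/5 and 1/25. These 6 differences share the same 2 untreated arrays, and the gene was picked for them, so the ranks carry no test. A term for scan day gave 4.29, 3.83 and 4.34 at 6 h and 3.26, 3.14 and 3.16 at 24 h. Slide 1 held both untreated arrays and replicates 1 and 2 of concentration 1 for 6 h, so this group can be set against untreated on the same slide: there, its arrays stood at 0.50 and 0.13 and the untreated arrays at -4.01 and -3.77.

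The size of the difference depended on the scaling. Quantile normalisation gave 4.77 and normexp background correction 3.84 for concentration 1 at 6 h. The authors' deposited table gave 4.56. The direction was the same in all 6 groups under each of these.

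Gldn stood lower after 24 h than after 6 h. Averaged over the 3 concentrations, it fell by 0.86 on the log2 scale (SE 0.16, 95% confidence interval of the difference -1.19 to -0.53, 9 arrays against 9), to 55.0% of the level at 6 h. In limma with Benjamini-Hochberg adjustment over 27735 genes the adjusted p was 0.00181. In this comparison 20.3% of all genes tested passed an adjusted p of 0.05, with a median difference of 0.10, so a call by itself is common here. An exact two-sided permutation test of Gldn alone, 9 arrays against 9 over 48620 splits, gave p = 0.000206 (0.000617 adjusted over the 3 permutation tests made). The ranges of the 2 times overlapped, through replicate 1 of concentration 1 for 24 h at -0.21 and replicate 1 of 1/5 for 6 h at -0.59. At both times, the untreated level lay far below.

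Taken one concentration at a time, the difference of 24 h from 6 h passed at 1/25 and not at 1 or 1/5. The time difference at 1/5 was not tested against those at the other concentrations. At 1/25 Gldn fell by 1.08 (SE 0.27, limma adjusted p = 0.0458, with 2.45% of all genes called), to 47.4% of the 6 h level. At concentration 1 the difference was -0.98 ± 0.27 (adjusted p = 0.199, unadjusted 0.00212 in limma), in a comparison where 0.177% of all genes were called. At 1/5 the difference was -0.53 ± 0.27 (limma adjusted p = 0.219, 4.9% called). The 6 h and 24 h arrays did not overlap at concentration 1 or at 1/25, and they overlapped at 1/5. The call at 1/25 lay close to the threshold. It was lost (adjusted p of 0.0523 to 0.143) without any of 13 single arrays, of which 8 belong to other groups and leave the difference at -1.08. These 8 were replicate 1 of concentration 1 for 6 h, replicate 2 of concentration 1 for 24 h, and all 6 arrays of 1/5. The other 5 were replicates 2 and 3 of 1/25 for 6 h (-1.07 and -1.22) and replicates 1, 2 and 3 of 1/25 for 24 h (-1.22, -0.97 and -1.04).

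The decrease from 6 h to 24 h was as large within scan day 1, where the concentrations are not balanced. Its arrays of 6 h hold none of 1/5, which had the lowest mean at 6 h (-0.22), while its arrays of 24 h hold all of 1/5. Concentration is thus mixed with time there, and with scan day among the arrays of 6 h. On day 1, the 9 arrays of 24 h had a mean level of -0.70 ± 0.28 (SD) and the 3 arrays of 6 h one of 0.42 ± 0.26. The difference was -1.12, the arrays did not overlap, and an exact two-sided permutation test gave p = 0.00455, the smallest that its 220 splits can give (0.00682 adjusted over the 3 tests). Arrays of 6 h scanned on day 2 stood at 0.03 ± 0.37 (n = 6), which is 0.39 below those of day 1 (n = 3), with exact permutation p = 0.155. With a term for scan day in limma, the averaged difference was -0.97 ± 0.23 with an adjusted p of 0.0295, while 4.51% of all genes were called. Slide and time coincided except on slide 2, which held replicate 1 of 1/25 for 6 h at 0.63 and replicate 1 of concentration 1 for 24 h at -0.21. With slide as a random block the averaged difference was -0.82 and did not pass (limma adjusted p = 0.0780, 1.13% of all genes called).

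No difference between concentrations passed at either time. The set covers 6 pairs of groups. At 6 h, concentration 1 read 0.57 above 1/5 (95% confidence interval -0.0039 to 1.14, limma adjusted p = 0.353). The difference of 1/5 from 1/25 was -0.57 (-1.14 to 0.0048, limma adjusted p = 0.496), so the middle concentration read lowest. Concentration 1 and 1/25 had the same mean to within 0.0008 (-0.57 to 0.57, limma adjusted p = 1.00), although the concentrations differ 25-fold. At 24 h the differences were 0.12 for 1 minus 1/5 (-0.46 to 0.69), -0.02 for 1/5 minus 1/25 (-0.59 to 0.55) and 0.10 for 1 minus 1/25 (-0.47 to 0.67), with adjusted p of 0.984 to 1.00. The intervals allow differences of up to about 0.57 to 1.14, so smaller effects of concentration could not be detected with 3 arrays a group. All 3 arrays of 1/5 for 6 h were scanned on day 2, and a term for scan day put the difference of 1 from 1/5 at 0.46 ± 0.31.

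These comparisons called few genes of any kind. In limma, 0 genes (0%) were called in each of the 3 pairs at 6 h, with 3923, 2801 and 1751 at an unadjusted p below 0.05. At 24 h 1 gene (0.00361%) was called for concentration 1 against 1/5 and 0 in the others, with 1512, 1078 and 818 at an unadjusted p below 0.05. The change from 6 h to 24 h at concentration 1 differed from that at 1/25 by 0.10 ± 0.38 (-0.71 to 0.91, limma adjusted p = 1.00). In that test 0 genes were called, with 982 at an unadjusted p below 0.05.

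**Figure D2:**
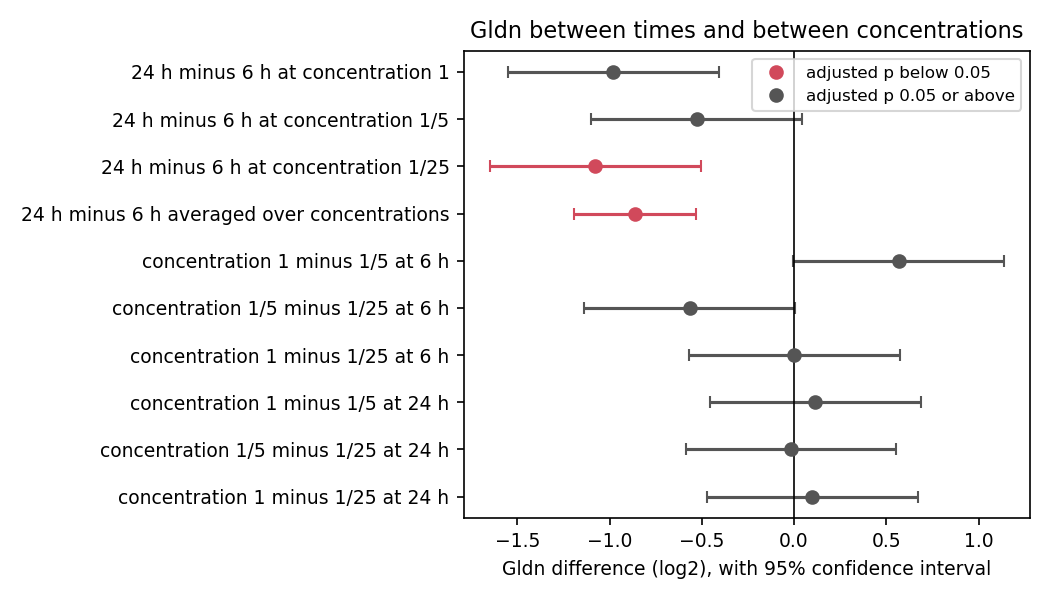
Differences in Gldn between times and between concentrations (horizontal axis, log2, points with 95% confidence intervals from limma); each comparison is named on the vertical axis and red marks an adjusted p below 0.05. The 3 concentrations together fell by 0.86, and all 6 intervals between concentrations include 0.

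The 6 genes with the profile most like Gldn were found by the root mean square difference over the 20 arrays, each gene centred on its own mean, among 8764 named genes well above background on all 18 celecoxib arrays. They were Ctss, the lysosomal protease cathepsin S (0.68), Itgb2, the beta chain of leukocyte integrins (0.72), and Prkcb, a protein kinase C (0.80). The others were Rrm2b, a ribonucleotide reductase subunit (0.81), Tnfrsf11b, the decoy receptor osteoprotegerin (0.81), and Kif2a, a kinesin that shortens microtubules (0.85). The median of this measure over the candidates was 1.34. This measure counts the size of the changes as well as their shape. The measured differences of the 6 genes from untreated were smaller than those of Gldn, but for 4 of them the size is uncertain: Prkcb, Itgb2 and Rrm2b were dim on untreated arrays and Tnfrsf11b was saturated on 3 arrays.

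Ctss stood at -3.70 and -3.11 on the untreated arrays, and its group means were between -1.61 and -0.89 with celecoxib. Its differences from untreated were 2.46, 2.41 and 2.51 at 6 h and 1.80, 2.30 and 2.10 at 24 h, for concentrations 1, 1/5 and 1/25. Like Gldn, it read lower at 24 h than at 6 h at each concentration, with an averaged difference of -0.40 ± 0.20. For Tnfrsf11b this was -1.43 ± 0.20. Rrm2b had -0.91 ± 0.22, Kif2a -0.57 ± 0.21, Itgb2 -0.49 ± 0.27 and Prkcb -0.37 ± 0.20. These genes were chosen on the same 20 arrays, so none of these values is a test. Prkcb was well above background on 0 of 2 untreated arrays, and Itgb2 and Rrm2b on 1 of 2 each. For Prkcb only a bound can be given, of at least 3.21-fold higher at concentration 1 for 6 h.

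**Figure D3:**
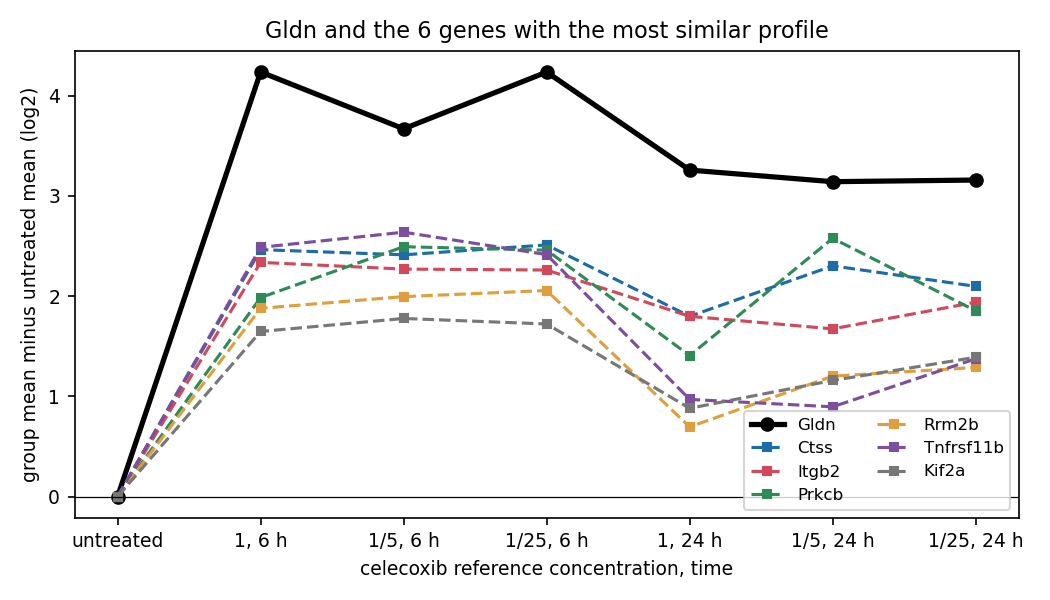
Group means minus the untreated mean (vertical axis, log2) for Gldn (black, solid) and the 6 genes with the smallest root mean square difference from it (dashed), by group (horizontal axis). Gldn lies at 3.14 to 4.24 and Ctss at 1.80 to 2.51, while the points of Prkcb, Itgb2 and Rrm2b (dim untreated) and Tnfrsf11b (3 saturated arrays) may understate the difference.

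Genes that work with gliomedin, resemble it or mark the cells that make it were looked up in 12 lists, of which 125 of 152 genes could be tested. Against untreated, 0 of 125 passed in limma at concentration 1 for 6 h, where 0.429% of all genes did, and 23 had an unadjusted p below 0.05. At concentration 1 for 24 h 0 of 125 passed, where 0.0649% of all genes did, and 11 had an unadjusted p below 0.05. Without untreated replicate 2 these counts were 2 and 1, and without replicate 2 of concentration 1 for 6 h the first was 1. A term for scan day made them 9 (7.2%) and 1 (0.8%), where it called 8.19% and 0.465% of all genes.

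At the lower concentrations some listed genes differed from untreated after 6 h, at a share below that of all genes. At 1/5, 5 of 125 passed (4%, against 6.56% of all genes), and at 1/25, 6 of 125 (4.8%, against 6%). Pcsk7, a proprotein convertase, rose by 2.43 at 1/5 and by 2.04 at 1/25, and Aldh1a2, the retinoic acid enzyme of epicardium, by 1.89 and 2.02. Vcan, a matrix proteoglycan found near nodes, rose by 1.21 at 1/5, while Cldn5, an endothelial tight junction protein, fell by 2.03 and Nefm, a neurofilament of neurons, fell by 1.54. The untreated arrays of Cldn5 stood at -3.77 and -1.06, and its arrays of 1/5 for 6 h at -4.66 to -4.10. The size of its fall thus rests mostly on 1 untreated array. At 1/25 Mbp, the gene of myelin basic protein, fell by 2.74 (limma adjusted p = 0.0264), and Kcna1, a potassium channel beside the node, fell by 2.49 (0.0278); each was well above background on 1 of 3 arrays there and on both untreated arrays. Col23a1, a membrane collagen, fell by 1.58 and Cd14, a macrophage receptor, by 1.26. Each has 2 kept probes, and from the authors' deposited table the probe with the highest mean ratio was taken, not the brightest. The values there (0.14 and 0.81) are those of the other probe. Genes with 1 kept probe moved only from 2.02 to 2.44 (Aldh1a2) and from -2.49 to -2.07 (Kcna1) in that table. The falls of Col23a1 and Cd14 are therefore those of the brighter probe alone. After 24 h, 1 of 125 passed at 1/5 (0.8%, against 0.288%), Nefm, which fell by 1.73, and 0 passed in limma at 1/25 (against 0.292%), with 13 at an unadjusted p below 0.05.

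These counts moved with single arrays, for which the share of all genes is not given here. At 1/5 for 6 h the count fell to 1 when its own replicate 1 was left out and to 0 when its replicate 2 or 3, or the first untreated array, was. It was 9 without replicate 3 of concentration 1 for 6 h, and 11, 8 and 10 without replicates 1, 2 and 3 of 1/25 for 6 h. At 1/25 for 6 h leaving out the untreated arrays in turn gave 0 (replicate 1) and 13 (replicate 2), and leaving out the group's own arrays gave 13, 23 and 0 (replicates 1, 2 and 3). For 24 h, the count at 1/25 was 1 without untreated replicate 2 and 2 without replicate 1 of 1/25 for 6 h. The single call at 1/5 for 24 h was lost without any of 8 arrays, namely untreated replicate 1, replicates 1 and 2 of 1/5 for 6 h, replicate 2 of concentration 1 for 24 h, all 3 of 1/5 for 24 h, and replicate 1 of 1/25 for 24 h. Without replicate 1 of 1/25 for 6 h the count there was 2. Given a term for scan day Pcsk7 stood at 0.54 at 1/5 and 0.78 at 1/25 and did not pass, nor did Aldh1a2 (1.38), Vcan (0.88) and Cldn5 (-2.42) at 1/5 for 6 h. With that term Mbp stood at -2.67 and Kcna1 at -2.63 at 1/25, and both passed. Quantile normalisation ended the calls of Kcna1 at 1/25 for 6 h (-1.90) and of Nefm at 1/5 for 24 h (-1.24), and the authors' deposited table that of Nefm there (-1.41).

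Between 24 h and 6 h, averaged over concentrations, 21 of 125 passed (16.8%), 14 higher and 7 lower at 24 h, against 20.3% of all genes (9.44% higher and 10.9% lower). The median difference was 0.23 over the listed genes and 0.10 over all genes. The count was 13 without replicate 3 of 1/5 for 6 h, 13 without replicate 2 of 1/5 for 24 h and 34 without replicate 1 of 1/25 for 6 h. It was 6 given a term for scan day (4.8%, against 4.51% of all genes), of which 2 (Egr2 and Lum) were among the 21. It was 1 (Aldh1a2) with slide as a random block, which called 1.13% of all genes. None of these 21 changed direction between the times under quantile normalisation, normexp or the authors' deposited table.

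Of the partners that gliomedin binds on the axon, Nfasc, the gene of neurofascin, was well above background on 1 of 20 arrays and was not tested. Nrcam was well above background on all 20 arrays, with mean levels of -2.67 untreated, -3.24 at 6 h and -2.85 at 24 h, and its difference between the times was 0.38 ± 0.27 (limma adjusted p = 0.325). Of the 28 genes of nodes and their neighbourhood that were tested, 4 passed between the times, which is 14.3%, below the 20.3% of all genes. Ank2, an ankyrin that anchors membrane proteins to spectrin and is also present in heart muscle, was higher at 24 h by 0.65, and Scn2a, a neuronal sodium channel, by 0.73. Scn8a, the main sodium channel of mature nodes, fell by 0.56. With normexp Scn8a was at -0.02 and Scn2a at 0.48, and neither passed. As the mean of all kept probes of a gene, Ank2 (3 probes) was at 0.37 and Scn8a (2 probes) at -0.12. Neither passed then (limma adjusted p of 0.182 and 0.530), while Scn2a still did.

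Cntnap1, an adhesion protein flanking the node, was well above background on 6 of 9 arrays at 6 h and on 0 of 9 at 24 h. It was at least 1.85-fold higher at 6 h (limma adjusted p = 0.00930 on the measured values). The filter kept it only through arrays of 6 h, where it was high, so its call between the times, counted above, is not a test. A term for scan day put its difference at -0.05 (limma adjusted p = 0.958), and on day 1 its 6 h arrays stood at -6.33 to -5.39, inside the range of the 24 h arrays. Scn2a and Ank2 did not pass with that term either, at 0.04 and 0.33 (limma adjusted p of 0.943 and 0.522), nor did Scn8a at -0.29 (0.508).

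Whether each gene in the list of processing proteases acts on gliomedin was not tested. Furin was well above background on all arrays at mean levels of 2.46 untreated, 2.68 at 6 h and 2.68 at 24 h. Its difference between the times was 0.00 ± 0.19 (limma adjusted p = 0.990), and -0.63 given a term for scan day (0.0963), and its sign turned with the scaling (-0.12 with quantile normalisation, 0.18 with normexp). Of the 8 genes of the list that were tested, 4 passed (50%, against 20.3% of all genes). Bmp1, which trims procollagens, was higher at 24 h by 0.44 (limma adjusted p = 0.0366), as were Pcsk5, a proprotein convertase, by 0.62 and Mbtps1, the site-1 protease of the Golgi, by 0.83. Pcsk7, another convertase, fell by 1.36 (limma adjusted p = 0.00434), and stood at -0.10 given a term for scan day. Bmp1, Pcsk5 and Mbtps1 also did not pass with that term (0.19, 0.06 and 0.54, limma adjusted p of 0.589, 0.923 and 0.449). Bmp1 lost its call in 17 of 31 alternatives, among them quantile normalisation (0.37) and the authors' deposited table (0.43), and was at 0.83 with normexp. Pcsk5 lost its call in 21 of 31 and Mbtps1 in 12 of 31. Tll1, a tolloid protease, had a difference of -0.19 (limma adjusted p = 0.678).

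Of 10 other genes with an olfactomedin domain, 2 passed between the times (20%, against 20.3% of all genes), both higher at 24 h. Olfml1 differed by 1.32 (limma adjusted p = 0.00656) and Olfml2b, a secreted matrix protein, by 1.10 (0.00467), opposite in sign to Gldn. Given a term for scan day they were at 1.00 and 0.41 and did not pass (0.243 and 0.452), while Adgrl3, a latrophilin, and Olfm3 passed with it (1.94 and 2.43). Of 6 membrane collagens and collagen-like receptors, 0 passed, with 1 at an unadjusted p below 0.05 in limma. At concentration 1, no tested gene of these families was called against untreated at either time.

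Markers of Schwann cells, the usual source of gliomedin in nerve, were present in part. Of 18 listed, 14 were tested and 7 were well above background on all 20 arrays, while S100b, Cdh19 and Erbb3 were well above it on 0 arrays. The markers' summed level, as signal relative to the 75th percentile, ran from 9.96 to 12.2 on the untreated arrays, from 10.4 to 18.4 at 6 h and from 8.95 to 14.0 at 24 h. On the log2 scale, Mbp differed from untreated by -1.43 ± 0.63 at concentration 1 for 6 h (limma adjusted p = 0.239), which did not pass the test, though it did at 1/25 for 6 h. Sox10, the lineage factor of Schwann cells, read -1.40 ± 0.80 (0.356). Egr2, the factor that drives myelin genes and is also induced early in many stimulated cells, read 1.08 ± 0.35 higher (0.145). Between the times Egr2 fell by 0.62 (limma adjusted p = 0.0234), the same direction as Gldn, and by 0.97 given a term for scan day (0.0449). In the authors' deposited table it was at -0.63 and did not pass (0.0605). Egr2 was the only Schwann cell marker of the 14 that passed without that term (7.14%, against 20.3% of all genes). Mbp and Sox10 did not pass (0.55 and 0.09, with limma adjusted p of 0.240 and 0.895). Given a term for scan day Sox10 was higher at 24 h by 1.99 (limma adjusted p = 0.000949) and Foxd3 by 0.90 (0.0335), both opposite to Gldn. Sox10 was well above background on 16 of 20 arrays and Mbp on 11, so the sizes of their differences are uncertain. The part of Schwann cell number in the level of Gldn was not tested.

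Markers of other cell types moved with time in some cases, in a comparison where 20.3% of all genes passed. The share was 30% for macrophage and leukocyte markers, 20% for fibroblast markers and 50% for epicardial and mesothelial markers. Of 10 macrophage and leukocyte markers, 3 passed, all higher at 24 h: Mrc1 by 1.21, Csf1r by 1.43 and C1qb by 0.55. Their summed level was 7.67 to 8.56 untreated, 4.40 to 7.44 at 6 h and 7.53 to 10.2 at 24 h. Of 10 fibroblast markers, Lum and Tcf21 passed, higher at 24 h by 1.15 and 1.45. With normexp Lum, well above background on 14 of 20 arrays, was at 0.51, and Csf1r, well above it on 11 of 20, at 0.81. Of 6 epicardial and mesothelial markers, Aldh1a2 fell by 1.34 while Msln and Upk3b were higher at 24 h by 0.59 and 1.23. Given a term for scan day Lum was at 1.66 and passed (limma adjusted p = 0.0108). Aldh1a2 missed the threshold (limma adjusted p = 0.0511), as did C1qb (0.86), Mrc1 (0.39), Csf1r (0.60), Msln (0.41), Upk3b (0.19), Tcf21 (2.00), Ttn (-0.42) and Kdr (-0.54). The cardiomyocyte list had 1 of 13 called (7.69%), Ttn, which fell by 0.75. As the mean of its 6 kept probes, Ttn was at -0.26 and did not pass (limma adjusted p = 0.312). The endothelial list had 1 of 4 called (25%), Kdr, which fell by 0.46 (and by 0.73 with normexp). The neuron list had 0 of 10 (3 at an unadjusted p below 0.05 in limma) and the smooth muscle list 0 of 6 (0 unadjusted). The summed cardiomyocyte level was 33.2 to 34.0 untreated and 23.5 to 57.1 at 6 h, and the arrays of 24 h lay inside the range of 6 h. The part of cell composition in the change of Gldn was not tested.

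**Figure D4:**
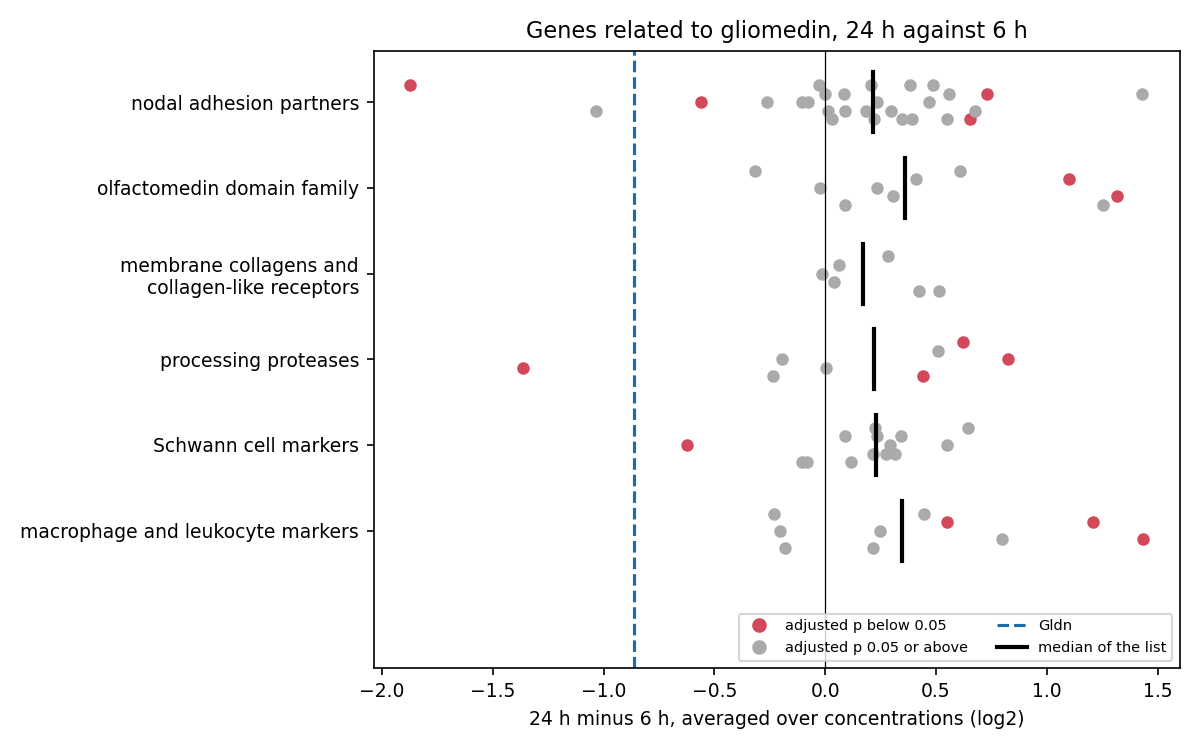
Difference of 24 h from 6 h averaged over concentrations (horizontal axis, log2) for each tested gene of 6 lists (vertical axis), with red for an adjusted p below 0.05, a black bar for the median of the list and a dashed line for Gldn at -0.86. The medians lie between 0.17 and 0.36, above 0 and on the other side from Gldn.

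The genes next to Gldn on its chromosome did not share its difference from untreated. The 5 nearest named protein-coding genes with a probe on each side, in the order of the RefSeq gene table of assembly GRCr8, were Npat, Acat1, Cul5, Sln and Elmod1 on one side and Dmxl2, Cib2, Idh3a, Acsbg1 and Dnaja4 on the other. Over the 6 comparisons with untreated, limma called 0 of these 10 genes, and their differences ran from -1.47 (Sln, the calcium pump regulator sarcolipin) to 1.14 (Cul5, a ubiquitin ligase scaffold). The shares of all genes called there were 0.429%, 6.56% and 6% at 6 h and 0.0649%, 0.288% and 0.292% at 24 h, for concentrations 1, 1/5 and 1/25. At concentration 1 for 6 h, the adjusted p of the neighbours ran from 0.141 to 0.992. Dmxl2, the next gene after Gldn, read 0.68 higher there (0.363). Between the times 3 of the 10 passed, against 20.3% of all genes: Dmxl2 fell by 0.62 (limma adjusted p = 0.0386), Acsbg1 fell by 0.53 (0.0489), and Cib2 was higher at 24 h by 0.85 (0.0228). Given a term for scan day Dmxl2 stood at -0.73, Acsbg1 at -0.22 and Cib2 at 0.12, and none of the 3 passed. Of 31 alternatives, Dmxl2 lost its call in 17, Acsbg1 in 21 and Cib2 in 4. For Dmxl2 these include quantile normalisation, normexp and the authors' deposited table (limma adjusted p of 0.0690 to 0.0880).

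Within 50000 bases of the Gldn probe in rn3, the array holds 5 other probes, singled out after their values were seen. The nearest lie 18514 and 18528 bases further along and carry the names of expressed sequence tags. DV715460 at chr8:57876502-57876561, minus strand, had a mean level of -0.55 untreated, 0.46 at 6 h and -0.25 at 24 h. AW524532 at chr8:57876516-57876575, plus strand, had -0.15, 0.67 and 0.17. Both were well above background on 20 of 20 arrays, and for each the untreated and celecoxib ranges overlapped, which those of Gldn did not. The other 3 are Dmxl2 probes 19582 to 19704 bases away, well above background on 20, 0 and 7 arrays.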

How the data were processed

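Expression was measured on 20 single-colour Agilent arrays (Cy3). Per the file headers, the authors scanned the arrays with Agilent Feature Extraction 9.5.3.1, and the deposited intensity values are background-subtracted processed signals, mean brightness and local background, with no scaling between arrays. The authors' deposited value table holds a linear ratio. Set against the scanner values, 99.6% of it lay within 0.01 log2 of the processed signal divided by the array median and then by the untreated mean, which fixes its scale, centring and direction. Its column medians ran from 0.826 to 1.27.

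From the intensities, log2 of the processed signal minus log2 of the 75th percentile of the array was computed in R 4.3.3. A probe was kept if some group had it well above background throughout (31776 of 41012), and the brightest probe stood for a gene (27751 genes). In the fit of the authors' deposited table, whose values are ratios, the probe with the highest mean log2 ratio stood for a gene instead. A fit with 7 group means over all 20 arrays was made in limma 3.58.1 with eBayes and Benjamini-Hochberg adjustment over all genes, called at an adjusted p below 0.05. Gene names came from the files for 19794 probes, and from the RefSeq table of assembly GRCr8 otherwise. A simulation with 200 changed genes among 27099 recovered 53.5% of log2 changes of -1 and 94% of -2 in the comparison of times averaged over concentrations. In the comparisons at single concentrations it recovered 1.5%, 2% and 0% of changes of -1 (at 1, 1/5 and 1/25), and 64.5%, 63% and 65.5% of changes of -2. Its noise was independent between arrays, while the data had a correlation within slides of 0.345. It also changed few genes, while 20.3% of all genes were called between the times averaged over concentrations. Recovery in the data may therefore differ.

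The members and gene lists were chosen with earlier results of these data known. The lists cover nodal adhesion partners, olfactomedin domain genes, membrane collagens and collagen-like receptors, processing proteases, and markers of Schwann cells, neurons, cardiomyocytes, fibroblasts, smooth muscle, endothelium, macrophages and leukocytes, and epicardium and mesothelium. Named are Gldn, list members past the threshold (at most 4 a list, by adjusted p) with 9 partners, proteases and myelin genes in any case, the 6 genes most like Gldn, and 5 neighbours on each side. A gene that this rule names is not reported here. Foxd3, Adgrl3 and Olfm3 were added after their values were seen. The alternatives tried were other scalings and background corrections, the filter, the mean over probes, scan day, slide and replicate number as terms, fewer arrays and a variance trend. The series text counts 3 replicates in each group, and 2 untreated arrays were analysed here.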

Additional observations from a re-analysis of the deposited data

Results flagged for a closer look

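Gldn in celecoxib-treated cultures differed between 24 h and 6 h by the limma test of that difference. No untreated arrays are matched for time, so time in culture and the drug cannot be told apart. Averaged over the concentrations the difference was -0.86 (log2, adjusted p = 0.00181), and 9 of 9 arrays of 24 h lay below the mean of the 6 h arrays. At concentration 1/25 it was -1.08 (limma adjusted p = 0.0458), with 3 of 3 arrays of 24 h below all 3 of 6 h. The call at 1/25 was lost with a term for scan day or for slide, and the averaged call with slide as a random term (limma adjusted p = 0.0780).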

How the results depend on the processing

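Among the alternatives run, the difference of Gldn from untreated kept its direction in all 193 values. In the order 1, 1/5 and 1/25 at 6 h and then at 24 h, quantile normalisation gave 4.77, 4.21, 4.77, 3.83, 3.71 and 3.72, and normexp gave 3.84, 3.11, 3.90, 2.88, 2.78 and 2.79. The authors' table gave 4.56 and 4.66 for 1 and 1/25 at 6 h, and 3.56, 3.46 and 3.45 at 24 h. It also moves the median of all genes against untreated to between 0.27 and 0.31 in 5 of 6 groups. The call between times at 1/25 was lost in limma with quantile normalisation (-1.05, adjusted p = 0.0609), no filter (-1.08, 0.0715), scan day as a term (-1.19, 0.0586), day 1 alone (-1.36, 0.0866), slide as a random term (-1.10, 0.296) or a fixed one (-1.02, 0.529), and only the groups compared (-1.08, 0.288). Leaving out single arrays gave -1.22 to -0.94 there, and -0.93 to -0.81 for the averaged difference, whose adjusted p in limma stayed between 0.00134 and 0.00558. Slide as a random term put the averaged difference at -0.82 (limma adjusted p = 0.0780). With replicate number as a block, the difference at 1/25 was -1.08 (limma adjusted p = 0.0560) and the averaged one, at -0.86, still passed. Of 45 pairs of same-numbered arrays, 6 had a correlation above 0.1 (mean 0.01, highest 0.46). This cannot settle whether some of them shared a culture. Listed genes called at concentration 1 for 6 h numbered 1 with quantile normalisation, 9 with scan day, 3 on day 1 alone, 1 with slide fixed, and 0 to 2 without single arrays. For 24 h they numbered 1 with normexp, 1 with scan day, and 0 to 1 without single arrays. At 1/5 for 6 h they numbered 10 with quantile normalisation, 14 with normexp, 8 in the authors' table, 2 with scan day, 0 with slide random or fixed, 3 with the replicate block, 11 with only the groups compared, and 0 to 11 without single arrays. At 1/25 for 6 h they numbered 15 with scan day, 13 on day 1 alone, 0 with slide random, 2 with the replicate block, 0 with only the groups compared, and 0 to 23 without single arrays. At 1/5 for 24 h they numbered 2 with scan day and on day 1 alone, 0 with quantile normalisation, the authors' table, no filter, the filter on all arrays, slide random, the replicate block, a variance trend or only the groups compared, and 0 to 2 without single arrays. At 1/25 for 24 h they numbered 1 with scan day and on day 1 alone, and 0 to 2 without single arrays. Between the times they numbered 6 with scan day, 1 with slide random, and 13 to 34 without single arrays. With scan day at 6 h, the listed shares were 7.2%, 1.6% and 12%, and those of all genes 8.19%, 1.14% and 11.5%. At 24 h they were 0.8%, 1.6% and 0.8%, and 0.465%, 1.4% and 0.862% (in the order 1, 1/5 and 1/25). Between the times 4.8% stood against 4.51%. For most other alternatives, and without single arrays, the share of all genes is not given here. The 194 values between concentrations changed no call. Day 1 alone and slide as a fixed term gave no averaged difference. With 2 untreated arrays the untreated level rests on few measurements, though its spot was well above background on both.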
